A study of Mus musculus with 20 samples.

Results

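Fc receptors and leukocyte integrins were followed through the probe sets that the platform annotation assigns to 8 genes: Fcgr1, Fcgr2b, Fcgr3, Fcer1g, Tyrobp, Ptprc, Itgam and Itgb2. They are read by 11 of the 12588 probe sets that are not array controls, out of 8220 genes with a probe set of 1 symbol. The arrays measured total RNA of skeletal muscle from mice aged 8 weeks, in 4 groups of 5 one-colour Affymetrix arrays each. The groups were extraocular muscle (EOM in the labels), which moves the eye, and leg muscle, each from wild-type control mice and from mdx mice, which lack dystrophin through a nonsense mutation in Dmd and serve as a model of Duchenne muscular dystrophy. The control leg samples are labelled gastrocnemius/soleus, while the mdx leg samples are labelled only as leg muscle, so the leg muscle taken may differ between the genotypes. The free-text descriptions also differ between all control and all mdx arrays, and any batch that goes with them cannot be told apart from genotype. Strain and sex are not in the labels used here, and nothing says that the replicates of a group came from separate animals, so the p-values reflect only how these arrays vary, part of which may be technical.

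Fc receptors bind the constant region of antibodies and couple it to phagocytes and other leukocytes. Fcgr1 and Fcgr3 are activating receptors for immunoglobulin G that depend on the signalling chain encoded by Fcer1g, Fcgr2b is the inhibitory receptor for the same ligand, and Tyrobp (DAP12) is the companion signalling chain of many other myeloid and natural killer cell receptors. Both chains carry a cytoplasmic tyrosine motif (ITAM) that recruits the kinase Syk. Itgam and Itgb2 encode the alpha and beta chains of the integrin Mac-1 (CD11b/CD18), with which myeloid cells hold on to vessel walls, matrix and complement-coated particles, and Itgb2 is the shared beta chain of all the CD18 leukocyte integrins. Ptprc encodes CD45, the membrane phosphatase of nearly all nucleated blood cells, which activates Src family kinases in these pathways. Macrophages are known to enter dystrophic limb muscle, whereas extraocular muscle is known to be spared in this disease.

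The promoters of the receptor genes and of Itgam are shown because these genes are read side by side below and because several of them are textbook targets of the myeloid factor PU.1, whose sites hold the purine-rich core GAGGAA. RefSeq promoter entries (GRCm38.p6) were found for 6 of the 8 genes. The last 120 bases before the annotated start are printed 5′ to 3′ in the direction of transcription, in lower case with GAGGAA or its other strand, TTCCTC, in capitals.
Fcgr1, chr3:96293970-96294089, minus strand: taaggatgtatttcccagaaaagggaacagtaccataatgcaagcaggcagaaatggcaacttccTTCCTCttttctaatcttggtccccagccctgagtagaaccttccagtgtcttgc
Fcgr2b, chr1:170976072-170976191, minus strand: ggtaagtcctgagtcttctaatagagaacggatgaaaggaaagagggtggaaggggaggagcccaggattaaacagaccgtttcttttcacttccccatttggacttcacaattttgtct
Fcgr3, chr1:171059395-171059514, minus strand: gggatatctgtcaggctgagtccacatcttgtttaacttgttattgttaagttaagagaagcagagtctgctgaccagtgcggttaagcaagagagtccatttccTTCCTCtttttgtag
Fcer1g, chr1:171234350-171234469, minus strand: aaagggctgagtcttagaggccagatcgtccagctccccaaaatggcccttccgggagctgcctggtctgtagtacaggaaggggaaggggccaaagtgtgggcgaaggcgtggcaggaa
Itgam, chr7:128062520-128062639, plus strand: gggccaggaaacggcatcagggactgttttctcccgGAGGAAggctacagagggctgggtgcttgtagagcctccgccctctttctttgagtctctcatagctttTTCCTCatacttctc
Within 250 bases before the start, on either strand, GAGGAA was found for 4 of the 6 genes, against 23.1% of 27025 genes in the same table. The match of Fcgr1 begins at base -55, that of Fcgr3 at base -15 for the start shown, those of Itgam at bases -84 and -15, and that of Ptprc at base -158. These 6 letters were not present in the window of Fcgr2b or Fcer1g, and the TATA core TATAAA, present for 13.0% of genes, was found only for Ptprc (base -187) among the 6. The matches are a description of letters, not measured sites. Spi1, the gene of PU.1, was itself 2.36-fold higher in mdx than in control leg muscle (723.2 ± 109.7 against 306.9 ± 52.0, SD, n = 5, limma adjusted p = 0.00101), and its difference in extraocular muscle was -0.16 on the log2 scale (limma adjusted p = 0.999). On chromosome 1, Fcgr2b, Fcgr4 and Fcgr3 lie next to each other, with Fcer1g further along the same stretch. Fcgr4 has no named probe set on this array.

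Signals are given on a common scale in which the trimmed mean of each array is 500. Values under 50 were raised to 50 before log2 differences were taken, and a fold is the ratio of geometric means that the log2 difference gives, which can exceed the ratio of the arithmetic means printed with an SD. Where an array of the dimmer group lay under the floor, that geometric fold is a lower bound, written as at least. The main fit was made over 7204 probe sets with a signal of 200 or more on 5 or more arrays, which let in only 4 of the 11 member probe sets: Fcgr1 102879_s_at, Fcgr2b 102337_s_at, Tyrobp 100397_at and Itgb2 102353_at. Fcgr2b and Itgb2 passed because all 5 mdx leg arrays reached 200. Their passing the filter is thus not independent of their leg difference, nor of any other comparison that uses the mdx leg arrays. The same limit holds for genes of the lists below that were bright mainly in mdx leg muscle, such as Btk, Was, Sirpa and Hcls1. Counts of genes higher among those tested are therefore partly set by the filter. The other 7 probe sets are given with a second fit over all 12588 probe sets. Levels are compared between arrays for 1 probe set and never between probe sets, which bind with different strength. Each array had 47.2% to 52.0% of its probe sets at 200 or above, and precision is limited by having 5 arrays a group. Skeletal muscle markers were mostly bright in all groups (Tnnt3, a fast troponin, had group means from 14465.8 to 19490.1). Tnnc2, however, was under the floor on every array, and Myh2 had group means from 43.9 to 75.5. Some varied widely within a group, as Acta1 did among the leg controls (591.8 to 24694.6). Dmd itself was at 77.5 ± 32.3 in mdx against 148.9 ± 40.2 in control leg muscle (limma adjusted p = 0.0323) and at 119.3 ± 31.7 against 268.2 ± 47.4 in extraocular muscle (not called, limma adjusted p = 0.233). A nonsense mutation can leave its transcript in place. Leg control array 4 stood apart from its group in some genes, picked after their values were seen. It had Hoxd8, a limb position gene, at 94.9 against 737.0 to 1415.6 on the others, and the slow-fibre gene Myl2 at 45.2 against 8607.6 to 20215.5. Leg control array 1 was the least like the rest of its group among all 20 arrays (mean correlation 0.892, against 0.898 to 0.931). By this measure array 4, at 0.906, lay within the range of the other leg controls (0.892 to 0.919). The members' leg results are therefore also given without array 4 or without both, and the leg counts of the gene lists are given that way where they changed. Without array 4 Dmd was not called in leg (-0.91 on the log2 scale, limma adjusted p = 0.057), nor without both (-0.72, 0.188).

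In mdx leg muscle the Fc receptor genes Fcgr1 and Fcgr2b, the adaptor Tyrobp, CD45 and both chains of Mac-1 were higher than in control leg muscle. Over all 11 member probe sets and with no signal filter, 8 were called higher and 0 lower at an adjusted p under 0.05, against 6.28% of all 12588 probe sets called higher and 3.83% called lower. The 8 calls cover 6 of the 8 genes, and Fcgr3 and Fcer1g were not called. In the main fit 4 of the 4 probe sets that passed the filter were called higher, where 10.7% of the 7204 tested probe sets were (7.15% were called lower). All 4 also had every mdx array above every control array, as 8.38% of the tested probe sets did. In bulk tissue a change in the number of leukocytes and a change in the RNA per cell cannot be told apart.

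**Figure D1:**
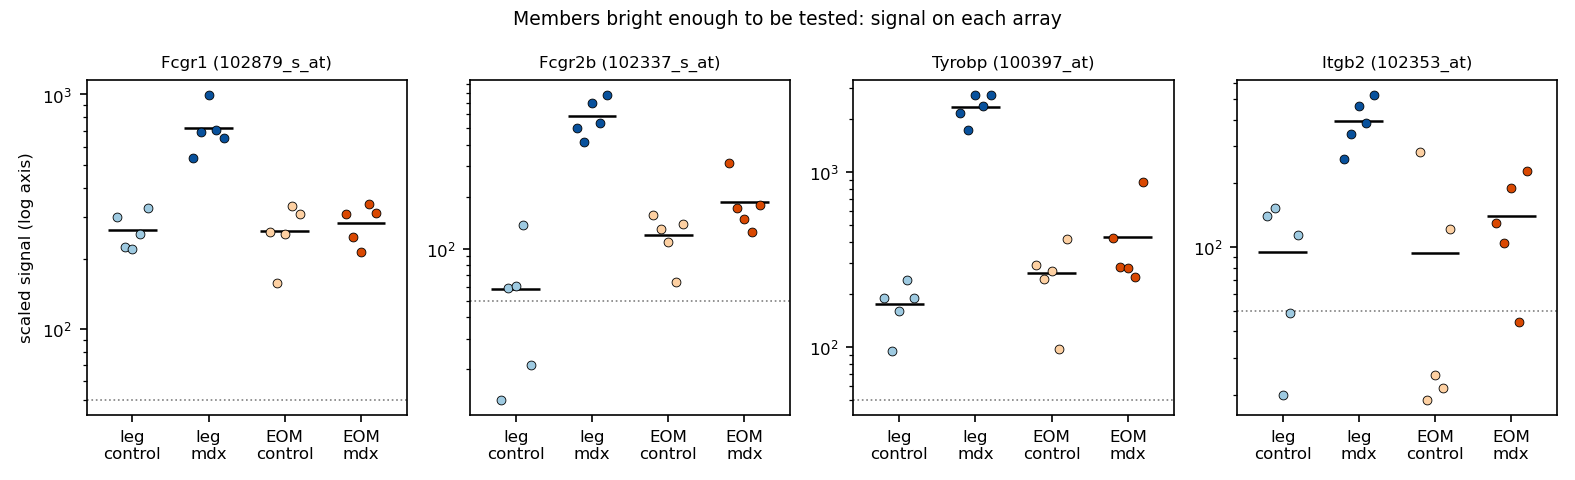
Scaled signal (log axis) of the 4 member probe sets that passed the filter, on each of the 5 arrays of the leg control, leg mdx, extraocular (EOM) control and EOM mdx groups; points are arrays, horizontal bars are group means, and the dotted line is the floor of 50. In each panel the 5 leg mdx arrays lie above the 5 leg control and 5 EOM mdx arrays, and the 2 EOM groups overlap.

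Among the Fc receptors, Fcgr2b, the inhibitory receptor for immunoglobulin G, had signals of 498.2, 414.7, 698.6, 533.6 and 772.9 on the 5 mdx leg arrays and of 13.3, 59.0, 60.8, 137.0 and 21.2 on the 5 control leg arrays. Every mdx array was thus above the brightest control, which was array 4. The difference was 3.11 on the log2 scale (SE 0.33, 95% interval 2.43 to 3.79), at least 8.65-fold with 2 control arrays under the floor (limma adjusted p = 3.91e-07). Without leg control array 4 it was 3.38 (limma adjusted p = 9.70e-08). Fcgr2b and Fcgr3 encode nearly identical extracellular parts, and the suffix of this Fcgr2b probe set marks probes that can be shared by related transcripts, so the signal may not be of Fcgr2b alone. The Fcgr1 probe set 102879_s_at carries the same suffix.

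Fcgr1, the high-affinity receptor for immunoglobulin G, was read by 2 probe sets. The brighter, 102879_s_at, gave 535.0, 693.7, 992.8, 706.2 and 654.4 on the mdx leg arrays and 299.6, 225.0, 218.8, 253.5 and 328.0 on the control leg arrays. The groups did not overlap, and the difference was 1.42 (SE 0.21, interval 0.98 to 1.87), or 2.68-fold (limma adjusted p = 4.46e-05). The dimmer probe set, 101793_at, gave 66.1, 81.1, 354.8, 34.4 and 205.0 in mdx and 30.4 to 47.8 in control leg muscle. Here mdx array 4 fell within the control range and all 5 controls lay under the floor. Its difference of 1.19 (interval 0.42 to 1.97) had a limma adjusted p of 0.0485 in the fit over all probe sets, but this call was lost on leaving out single arrays in 7 of 10 cases (all 5 controls, and mdx arrays 3 and 5; adjusted p up to 0.138) and with a floor of 20 (0.0522).

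Fcgr3, the low-affinity activating receptor, ran from 117.9 to 238.0 (median 178.9) in mdx and from 67.4 to 191.5 (median 166.3) in control leg muscle. These ranges overlap, and the log2 difference of 0.43 had an interval from -0.37 to 1.22 (limma adjusted p = 0.605 over all probe sets). With this spread the interval covers both a small fall and a rise of more than 1 log2 unit.

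The ITAM-bearing adaptors gave unlike readings. Tyrobp had signals of 2176.1, 1723.8, 2739.0, 2385.9 and 2737.7 in mdx leg muscle and of 190.1, 95.5, 160.6, 243.0 and 190.2 in control leg muscle. The lowest mdx array was 1723.8 and the highest control 243.0. The difference was 3.79 on the log2 scale (SE 0.35, interval 3.07 to 4.50), or 13.8-fold (limma adjusted p = 5.00e-08), and 3.92 without leg control array 4. Fcer1g, the chain that Fcgr1 and Fcgr3 need for surface expression, was read at 19.9 to 88.0 in control and 21.0 to 89.5 in mdx leg muscle. In each of the 4 groups 3 of 5 Fcer1g arrays were under the floor, so most of its readings are only bounds. Its log2 difference in leg muscle was 0.12 (interval -0.35 to 0.59, limma adjusted p = 0.869 over all probe sets). Some probe sets of this early array design were later withdrawn by the maker, and whether those of Fcer1g and Fcgr3 measure their genes was not tested.

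Ptprc was read by 3 probe sets that did not give the same picture. Probe set 101048_at gave 186.3, 144.6, 360.1, 216.4 and 433.0 on the mdx leg arrays against 13.4 to 20.6 on control arrays 1 to 4 and 81.5 on control array 5. Probe set 101298_g_at gave 184.3, 131.8, 255.7, 235.4 and 82.8 against 41.0, 36.5, 19.5, 28.3 and 24.2. For both, all mdx arrays were above all controls, as for 5.47% of all 12588 probe sets, while 4 and 5 of the 5 control arrays were under the floor. The log2 differences were 2.16 (SE 0.28, at least 4.47-fold, limma adjusted p = 5.77e-05 over all probe sets) and 1.72 (SE 0.22, at least 3.29-fold, 5.82e-05). The floor sets those control arrays to 1 value and so removes their spread. With a floor of 20 the differences were 3.21 and 2.51, and the limma adjusted p-values 1.31e-04 and 1.44e-04. The third, 101297_at, designed from the same target as 101298_g_at, stayed between 5.0 and 50.2 on all 20 arrays and carried no measurable level.

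Of the Mac-1 chains, Itgam, the alpha chain, had signals of 133.8, 85.1, 485.5, 256.5 and 233.5 in mdx leg muscle, against 47.8, 69.4, 36.6, 68.5 and 68.9 in control leg muscle. All mdx arrays were above all controls, with mdx array 2 close to them. The difference was 1.73 (SE 0.33, interval 1.03 to 2.44), at least 3.32-fold (limma adjusted p = 0.00221 over all probe sets). Itgb2, the beta chain, had signals of 260.3, 343.0, 466.1, 384.3 and 522.5 against 141.0, 152.8, 20.1, 48.6 and 114.5. Its groups did not overlap, although the controls spread from under the floor to 152.8. The Itgb2 difference was 2.08 (SE 0.50, interval 1.05 to 3.12), at least 4.23-fold (limma adjusted p = 0.00474), and 1.87 (0.0155) without leg control array 4. Without leg control arrays 1 and 4 all 4 tested members were still called higher, at log2 differences of 4.02 for Tyrobp, 3.33 for Fcgr2b, 1.47 for Fcgr1 and 2.01 for Itgb2 (limma adjusted p up to 0.0222). Without array 4 the differences of the 2 Ptprc probe sets and of Itgam were 2.13, 1.72 and 1.78, all called over all probe sets.

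**Figure D2:**
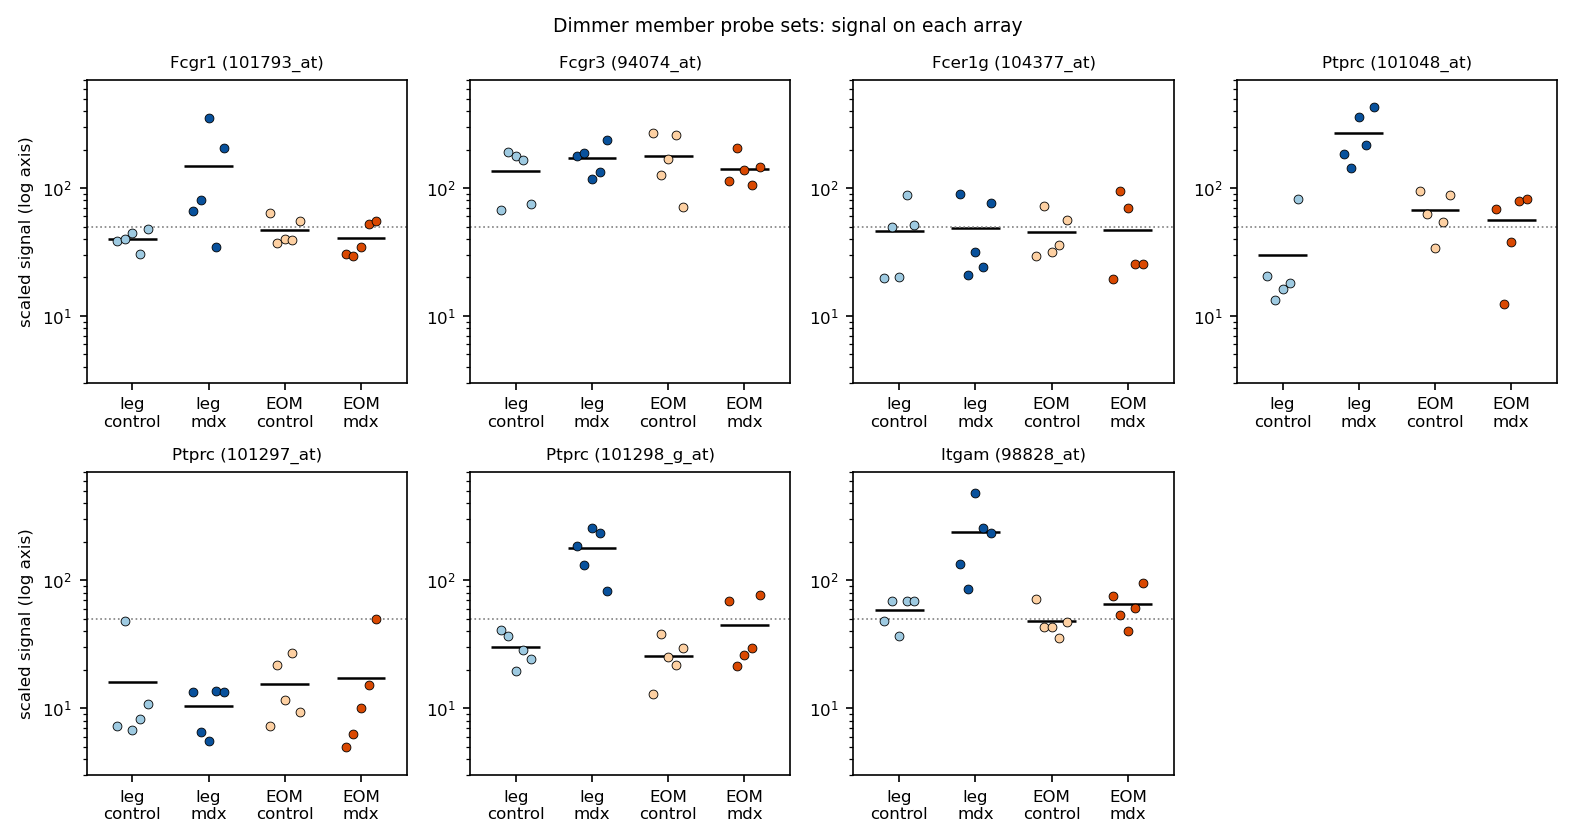
Scaled signal (log axis) of the 7 member probe sets under the filter, drawn as in the plot of the tested members, with group means as bars and the floor of 50 as a dotted line. The leg mdx arrays of Ptprc 101048_at, Ptprc 101298_g_at and Itgam lie above the leg controls, whereas the 4 groups of Fcgr3, Fcer1g and Ptprc 101297_at overlap.

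The 5 mdx leg arrays were not equally high. Arrays 3 and 5 were the top pair for Tyrobp, Fcgr2b, Itgb2, Ptprc 101048_at and Fcgr1 101793_at, and arrays 1 and 2 were the lowest pair for Tyrobp, Fcgr2b, Ptprc 101048_at, Itgam and Itgb2. Between the highest and the lowest mdx leg array the signal differed 1.59-fold for Tyrobp, 1.86-fold for Fcgr2b and for Fcgr1 102879_s_at, 2.01-fold for Itgb2, 2.99-fold for Ptprc 101048_at and 5.70-fold for Itgam. Ptprc 101298_g_at did not follow this order, since array 5 was its lowest. Nor did Fcgr1 102879_s_at, in which array 5 came after arrays 3, 4 and 2, and Itgam had arrays 3 and 4 as its top pair. The summed signal of 22 macrophage marker genes had the same order of pairs as Tyrobp, at 58864.0 and 57770.5 on arrays 3 and 5, 54408.6 on array 4, and 44421.8 and 48223.5 on arrays 1 and 2.

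In extraocular muscle no member was called between mdx and control by limma, and none of the 4 tested had an unadjusted p under 0.05, in a comparison where 0.0833% of the 7204 tested probe sets (6, or 369 at an unadjusted p under 0.05) were called. Tyrobp had signals of 419.2, 285.0, 281.8, 252.8 and 877.1 on the mdx arrays and of 293.3, 243.6, 271.4, 97.9 and 412.5 on the controls. Only mdx arrays 1 and 5 exceeded the brightest control. The log2 difference was 0.65 (SE 0.35, interval -0.07 to 1.37, limma adjusted p = 0.981). Fcgr2b gave 312.0, 170.7, 148.0, 125.4 and 179.3 in mdx against 156.5, 129.5, 109.3, 64.3 and 138.2 in control extraocular muscle. The groups overlapped, with mdx array 1 highest, and the difference was 0.63 (interval -0.05 to 1.31, limma adjusted p = 0.979). The unadjusted p-values of Tyrobp and Fcgr2b were 0.0736 and 0.0664.

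Fcgr1 102879_s_at gave 308.8, 246.0, 213.4, 342.7 and 312.7 in mdx and 260.1, 157.3, 255.2, 334.1 and 308.4 in control extraocular muscle. These values interleave, and the difference was 0.14 (interval -0.31 to 0.58, limma adjusted p = 0.999). Itgb2 gave 130.3, 104.3, 190.0, 44.4 and 229.4 in mdx, against 282.8, 19.0, 25.0, 21.7 and 121.7 in control. A single bright control, array 1, lay above every mdx array, while 3 controls were under the floor. The Itgb2 difference was 0.56 (interval -0.48 to 1.59, limma adjusted p = 0.999). The 7 dimmer probe sets had differences from -0.22 (Fcgr3) to 0.28 (Itgam) in the fit over all probe sets, and none was called, where 0.0238% of 12588 were. Itgam ran from 40.4 to 95.5 in mdx and 35.3 to 71.4 in control extraocular muscle. EOM mdx arrays 1 and 5, the highest for Tyrobp, also had the largest macrophage marker sums of that group, at 17288.8 and 18220.6 against 10176.2 to 12674.6 on the other 3. Ctss, a lysosomal protease of macrophages, was the only macrophage marker called in this muscle (2.06-fold, limma adjusted p = 0.0259), where 6 of 19 had an unadjusted p under 0.05, and it was not called in the fit over all probe sets (0.136).

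The effect of mdx was larger in leg than in extraocular muscle for Tyrobp, Fcgr2b and Fcgr1. This was tested as the difference of the effects, which was called higher in leg for 4.93% of the tested probe sets. It was 3.13 on the log2 scale for Tyrobp (SE 0.49, interval 2.12 to 4.15, limma adjusted p = 2.89e-04), 2.48 for Fcgr2b (SE 0.46, 0.0017) and 1.29 for Fcgr1 102879_s_at (SE 0.30, 0.0113). Each of these calls was kept in the 20 fits that left out 1 array, with adjusted p up to 0.00102, 0.00574 and 0.0295. They were also kept without leg control arrays 1 and 4 (3.37, 2.70 and 1.34). For Itgb2 the difference of effects was 1.52 (SE 0.71, interval 0.06 to 2.99) and was not called (limma adjusted p = 0.249), except with a floor of 100 (0.0334). In the fit over all probe sets, where 2.30% were called higher in leg, the 2 Ptprc probe sets were called (2.23, limma adjusted p = 0.00402, for 101048_at, and adjusted p = 0.0141 for 101298_g_at), the latter not past the threshold with a floor of 20 (0.0556). Itgam (1.45, interval 0.45 to 2.45, 0.129), Fcgr3 (0.65, 0.69) and Fcer1g (-0.01) were not called.

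**Figure D3:**
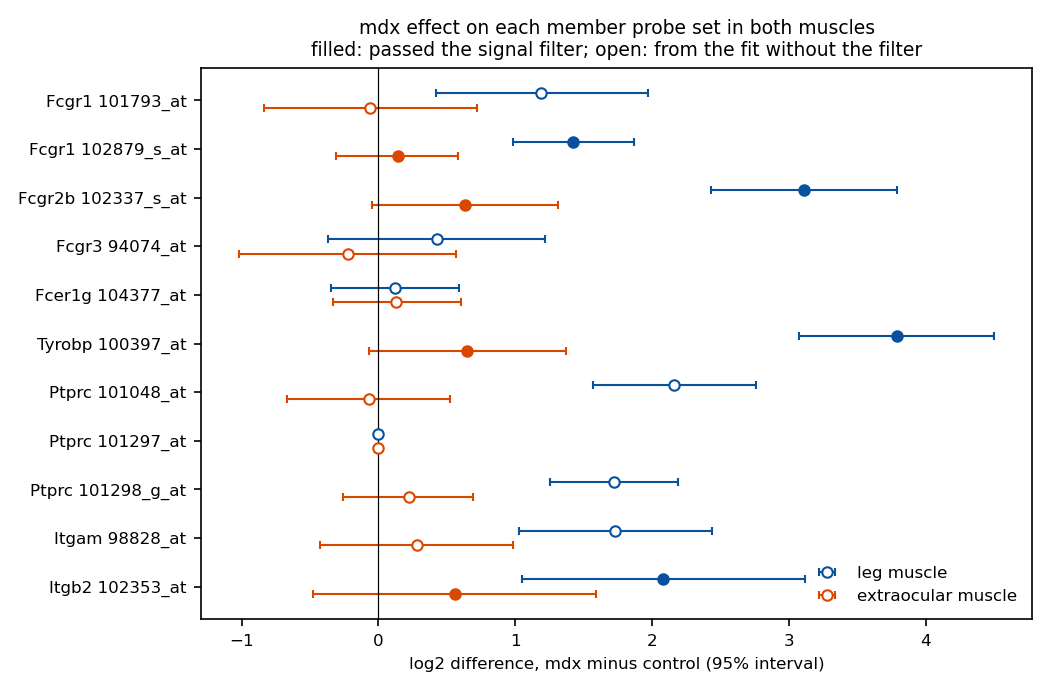
Log2 difference between mdx and control (x axis) with its 95% interval for each of the 11 member probe sets, in leg muscle (blue) and extraocular muscle (orange); filled points come from the main fit and open points from the fit over all 12588 probe sets. The leg intervals of 8 probe sets lie above 0, and all 11 extraocular intervals include 0.

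Between the muscles, no member was called by limma in control mice, where 17.7% of tested probe sets were, and 1, Fcgr2b, had an unadjusted p under 0.05. Its extraocular minus leg difference was 0.80 on the log2 scale (interval 0.12 to 1.48, limma adjusted p = 0.1). It passed the threshold without leg control array 4 (1.07, 0.0203), without EOM control array 4 (1.01, 0.0404), without leg control arrays 1 and 4 (1.02, 0.0454) and with a floor of 20 (1.31, 0.0393). Tyrobp differed by 0.51 (0.364), Fcgr1 by -0.04 (0.931) and Itgb2 by -0.10 (0.92, limma adjusted p in each case). The order of the group means of Tyrobp and Fcgr2b was leg mdx, EOM mdx, EOM control and leg control. The first step of that order was from 2352.5 ± 425.8 to 423.2 ± 261.8 for Tyrobp and from 583.6 ± 147.8 to 187.1 ± 72.9 for Fcgr2b, and both were called. The last step, from 119.6 ± 35.2 to 58.2 ± 49.0 for Fcgr2b, was larger than either SD but not called, and the other neighbouring groups were not called apart.

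In mdx mice all 4 tested members were lower in extraocular than in leg muscle, where 8.83% of tested probe sets were lower, and for all 4 the groups did not overlap, as for 7.02%. Tyrobp was 6.18-fold lower (limma adjusted p = 8.84e-06), Fcgr2b had a log2 difference of -1.68 (8.21e-04), Fcgr1 102879_s_at was 2.50-fold lower (1.18e-04) and Itgb2 at least 3.09-fold (0.0253). The Itgb2 call was lost in 4 of the 10 fits without 1 array (up to 0.0789, without EOM mdx array 4), with a floor of 20 (0.103) and with no filter (0.0562). Over all probe sets Ptprc 101048_at, Ptprc 101298_g_at and Itgam were also lower in this contrast, with limma adjusted p of 1.80e-04 (log2 difference -1.93), 2.28e-04 and 0.00355 (-1.63), where 5.06% were lower. These comparisons share their mdx leg arrays with the leg comparison and are not independent of it. Fcgr2b and Itgb2 also passed the filter through those arrays, so the count of 4 and the lack of overlap are partly set by the filter.

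Across the 20 arrays the log2 signals of members that differed between groups ran together, as shared group differences alone would make them do. Pearson r was 0.93 between Tyrobp and Fcgr2b, 0.75 between the Mac-1 chains Itgam and Itgb2, and 0.91 between Ptprc 101048_at and Itgam. With group means removed, so that only the spread within groups is left, these values were 0.60, 0.34 and 0.71. The 2 Fcgr1 probe sets gave 0.72 and 0.36, and the 2 Ptprc probe sets with measurable signal gave 0.81 and -0.04. Fcgr3 and Fcer1g, the members not called in leg muscle, had r = 0.07 and 0.15 with Tyrobp. These are descriptions over arrays that share their groups. Of 5464 other genes, the profiles most like the mean profile of the 4 tested members over the 20 arrays were those of Sirpa, C1qb, C1qc, Cd74, Mpeg1, H2-Aa, Cd53 and Rpl13a (Pearson r from 0.958 to 0.946). After group means were removed the first 8 were S100a3, Id1, C1qc, Numa1, Prmt1, Mcfd2, C1qb and Nde1 (0.772 to 0.727), and C1qb and C1qc, chains of the complement starter C1q, were in both sets.

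Downstream of the Fc receptors, 5 of 15 tested ITAM kinases and adaptors were higher and 0 lower in mdx leg muscle (list median log2 difference 0.71, against -0.06 over all tested probe sets). Over all tested probe sets 10.7% were higher. With no filter 6 of the 20 genes with a probe set were higher, against 6.28% of all 12588 probe sets. Lat2, an adaptor of myeloid and B cells, was 5.07-fold higher (788.1 ± 193.8 against 155.8 ± 39.9, limma adjusted p = 6.87e-08). Prkcd, a protein kinase C, was 1.96-fold higher (7.20e-04) and Was, which drives actin branching in blood cells, at least 3.72-fold (0.00122). The other calls were of the kinase Btk (at least 4.25-fold) and the adaptor Dok2 (1.87-fold). Syk, the kinase that binds the phosphorylated motif, was at 1636.9 ± 340.5 against 1258.8 ± 152.8 (1.28-fold, limma adjusted p = 0.117) and Vav1 was not called either (2.14-fold, 0.0512). In extraocular muscle 0 of the 15 were called and 1 had an unadjusted p under 0.05 (median -0.10). Over all 7204 tested probe sets 0.0833% were called in that muscle and 369 had an unadjusted p under 0.05, so these counts are near the overall share. By the test of the difference 4 of 15 had a larger effect in leg, against 4.93% of all tested probe sets.

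Inhibitory receptors and phosphatases, the class to which Fcgr2b belongs by function, had 2 of 7 tested genes higher and 0 lower in mdx leg muscle (median 0.82). The share of all tested probe sets called higher was 10.7%. With no filter 5 of the 13 genes with a probe set were higher, against 6.28% of all 12588 probe sets. Sirpa, the macrophage receptor for the don't-eat-me signal CD47, was at least 13.2-fold higher (720.3 ± 174.0 against 51.1 ± 7.20, limma adjusted p = 1.70e-07), and over all probe sets its other 2 probe sets were higher by at least 3.02-fold and 4.23-fold. Pirb, a paired immunoglobulin-like receptor, was 1.77-fold higher (0.00784). Ptpn22, a phosphatase that restrains ITAM signalling, was not called (2.59-fold, limma adjusted p = 0.0551), except without leg control array 4, which makes 3 of 7. Receptors that pair with Tyrobp or Fcer1g were poorly covered. Only 4 of 19 listed genes had a probe set and 0 were bright enough to test, and over all probe sets 1 of the 4, Clec4d, was called higher.

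In the list of other Fc receptors and immunoglobulin chains, 0 of 5 tested genes were called in leg muscle, and 1 had an unadjusted p under 0.05 (median -0.11). Over all 7204 tested probe sets 10.7% were called higher and 7.15% lower, and 2124 had an unadjusted p under 0.05. Counts this low in so short a list can come at those shares alone. Ighg3, the only immunoglobulin G chain among them, had a log2 difference of -0.23 (limma adjusted p = 0.674). The arrays read RNA and not antibody protein, so the amount of immunoglobulin G in the muscle was not tested. The brightest Ighm probe set was at 1517.4 ± 150.7 in mdx against 1646.4 ± 247.9 in control leg muscle (log2 difference -0.11, limma adjusted p = 0.78), and another Ighm probe set, 93584_at, was lower by -1.02 (0.00389). Jchain, which joins immunoglobulin polymers, was at 221.1 ± 26.6 against 200.3 ± 32.8, and Pigr, which carries them across epithelia, had a log2 difference of -0.51 (limma adjusted p = 0.0642).

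Among other leukocyte integrins and their activators, 5 of 11 tested genes were higher and 0 lower in mdx leg muscle (median 0.48), where 10.7% of all tested probe sets were higher. Lcp1, the actin bundler L-plastin of leukocytes, was 16.6-fold higher (1590.3 ± 259.3 against 95.2 ± 13.0, limma adjusted p = 6.87e-08), while its other probe set stayed near the floor. Apbb1ip (RIAM), which brings talin to integrins, was 4.49-fold higher (750.7 ± 103.0 against 167.4 ± 26.0, limma adjusted p = 1.12e-08). Itgax, the CD11c chain that also pairs with Itgb2, was 2.33-fold higher (837.1 ± 126.8 against 366.7 ± 99.3, 2.70e-05). Coro1a (3.91-fold) and Hcls1 (at least 3.66-fold), both actin regulators of blood cells, were the other calls. The broadly expressed Itgb1 and Tln1 were not called (log2 differences 0.23 and 0.22). Of 9 tested integrin ligands and adhesion genes 2 were higher (median 0.34), against the same 10.7%. They were Selplg, the selectin ligand of leukocytes (1.96-fold, limma adjusted p = 5.32e-05), and Thy1 (3.19-fold, 0.0397). The Thy1 call was lost in the fit over all probe sets (limma adjusted p = 0.108) and without leg control arrays 1 and 4 (0.0586), and without array 4 alone Cd34 was called as well, which makes 3 of 9. The endothelial ligands Icam2 (-0.12, limma adjusted p = 0.91) and Vcam1 (-0.09, 0.8) were not called. In extraocular muscle 0 of the 11 and 0 of the 9 were called, and 0 had an unadjusted p under 0.05. Only 0.0833% of all 7204 tested probe sets were called there, and 369 had an unadjusted p under 0.05.

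**Figure D4:**
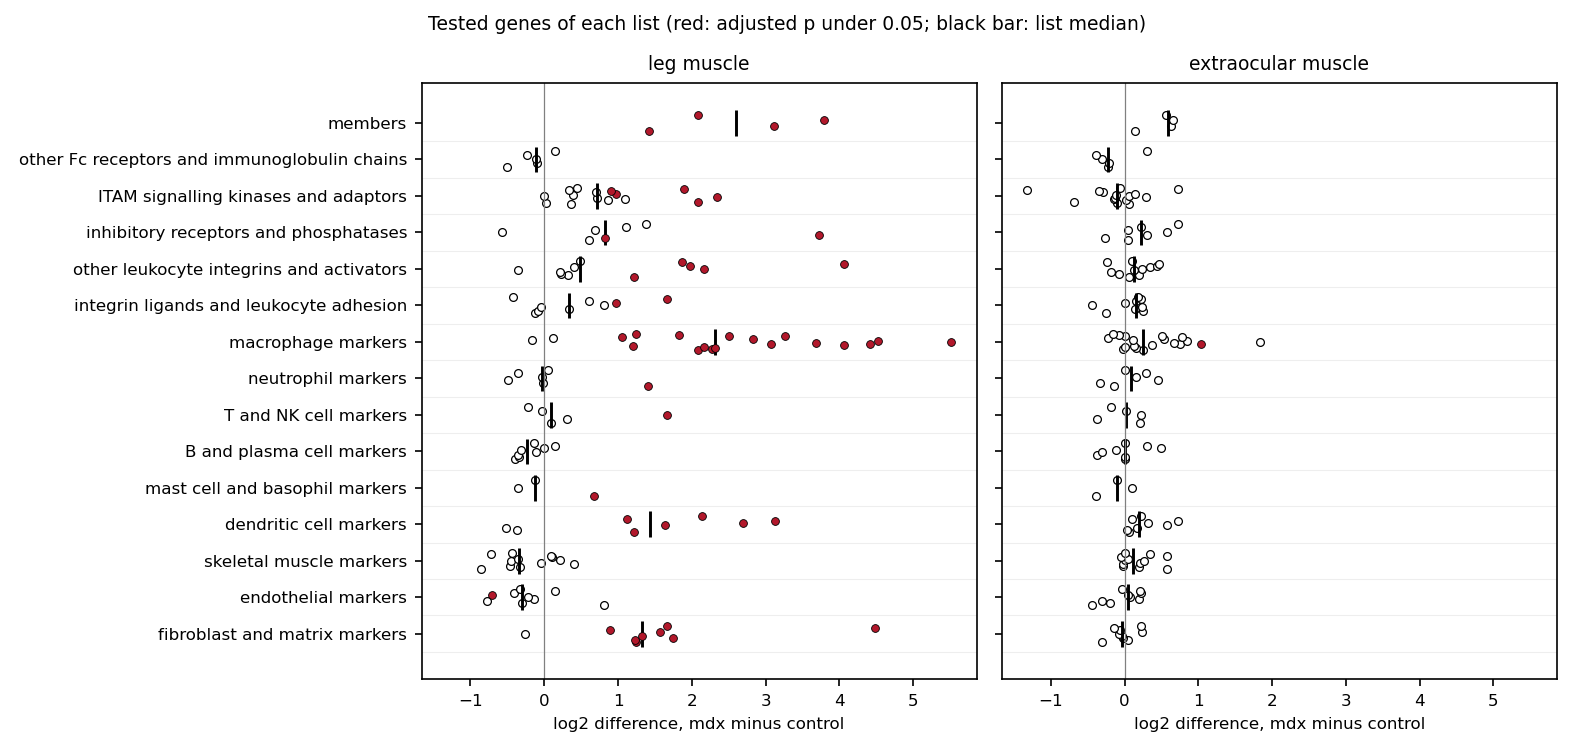
Log2 difference between mdx and control (x axis) of each tested gene in the lists of pathway genes and cell type markers, in leg muscle (left) and extraocular muscle (right); points are genes, red points have an adjusted p under 0.05, and black bars are list medians. In leg muscle the macrophage, dendritic cell and fibroblast lists hold 17, 6 and 8 genes called higher, and in extraocular muscle the 1 called point is Ctss.

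Markers of other cell types moved beside the members, and their part in the result was not tested. In mdx leg muscle 10.7% of all tested probe sets were called higher. Of 19 tested macrophage markers 17 were higher and 0 lower in mdx leg muscle (median log2 difference 2.32), and their summed signal was 44421.8 to 58864.0 in mdx against 6738.6 to 9139.5 in control arrays. In extraocular muscle the sums were 10176.2 to 18220.6 and 9974.6 to 13408.1. Ctss was 21.2-fold and Mpeg1, a pore-forming protein of phagocytes, 8.40-fold higher in leg (limma adjusted p = 6.23e-13 and 2.01e-10). Laptm5, a lysosomal protein of blood cells, was 12.9-fold higher by its brighter probe set (4.71e-10) and -0.06 on the log2 scale by the other. Dendritic cell markers had 6 of 8 genes higher (sums of 18184.4 to 21086.9 against 5141.5 to 6728.1), among them the class II genes H2-Ab1 (8.76-fold), H2-Aa (6.47-fold) and Cd74 (4.40-fold), which macrophages also express, and the list shares Itgax with the integrins. Flt3 (965.1 ± 162.2 in mdx against 1236.2 ± 122.9) and Xcr1 (288.4 ± 123.2 against 383.3 ± 70.6), also tested, had lower means in mdx leg muscle and were not called. Without leg control arrays 1 and 4, 16 of 19 macrophage and 7 of 9 fibroblast and matrix markers were called higher, and the dendritic cell count stayed at 6 of 8.

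Markers of lymphocytes and granulocytes were mostly not called. With 10.7% of all tested probe sets called higher in leg muscle, a single call in so short a list can come at that share alone. Of 6 tested neutrophil markers 1, S100a8 (2.65-fold, limma adjusted p = 0.00437), was higher, and the sums overlapped between the leg groups (3289.5 to 4530.0 in mdx, 3253.5 to 4115.5 in control). Csf3r, with the largest mean, weighs most in that sum (1209.9 ± 319.6 in mdx against 1505.6 ± 226.5). Over all probe sets S100a9, too dim to pass the filter, was called higher as well (186.5 ± 108.2 against 47.0 ± 30.7). For T and NK cells 1 of 5 was higher, Thy1 (0 of 5 without leg control arrays 1 and 4), which fibroblasts and neurons also express. None of 8 B and plasma cell markers was called or had an unadjusted p under 0.05 (Cr2 was under the floor on every array). Mast cell and basophil markers had 1 of 3 higher, Cma1 (1.60-fold, 0.0443), whose other probe sets were not called and whose call was lost over all probe sets (0.0761) and without leg control arrays 1 and 4 (0.149), and Tpsab1 was under the floor on every array. Sums for B cells and mast cells overlapped between the leg groups, and those for T and NK cells did too (2375.2 to 3538.1 in mdx, 1485.9 to 2785.3 in control).

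Of the tissue cell types, fibroblast and matrix markers had 8 of 9 genes higher in mdx leg muscle, with Postn 22.3-fold (limma adjusted p = 3.85e-12). Over all tested probe sets 10.7% were higher and 7.15% lower. Endothelial markers had 0 of 9 higher and 1 lower, Flt1 (1.64-fold, 0.0103), which was not called without leg control arrays 1 and 4 (0.0998), and skeletal muscle markers had 0 of 12 called, 2 with an unadjusted p under 0.05 (median -0.34). Of the control ratios used to judge RNA quality, that of beta-actin differed in leg muscle, with the 5′ end the brighter in mdx, and that of Gapdh did not pass 0.05. The log2 ratio of the 3′ to the 5′ beta-actin control probe sets was -1.86 ± 1.25 in mdx and 0.50 ± 0.37 in control leg arrays (two-sided exact permutation p = 0.00794, the smallest that 5 against 5 arrays allow, and 0.0318 after Benjamini-Hochberg adjustment over the 4 comparisons made). The Gapdh ratio in leg was -2.50 ± 0.14 against -2.48 ± 0.84 (exact permutation p = 0.929), and in extraocular muscle neither control differed past 0.05 (exact permutation p = 0.651 and 0.0714). The part of this difference in the leg results was not tested.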

How the data were processed

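Total RNA of 20 muscle samples was hybridised to one-colour Affymetrix mouse arrays, 5 per group, and the authors deposited these as linear intensities, 1 per probe set. The sources used here do not give the software that made them; the mdx arrays followed the maker's standard protocol, per the labels. The deposited intensities run from 0.4 to 95476.8 with a 2% trimmed mean of 1500.1 on every array, so they had been scaled before deposit.

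Each array was rescaled to a 2% trimmed mean of 500 over the 12588 non-control probe sets (66 of 12654 are controls), floored at 50 and taken to log2. Means ± SD in the text are of scaled values before the floor, and folds are of log2 means after it. The platform annotation has a single symbol for 10276 probe sets, more than 1 for 363 and no entry for 1993. Promoters are from RefSeq (GRCm38.p6). The 7204 probe sets at 200 or above on at least 5 arrays were fitted in limma 3.58.1 (R 4.3.3) with lmFit and eBayes with an intensity trend, all 4 groups together (16 residual degrees of freedom), in 5 contrasts with Benjamini-Hochberg adjustment over all tested probe sets within each, called at 5%. The fit was tested on simulated data. Correlations and quality ratios are described where given.

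The members and the gene lists were chosen with earlier results of these data known, and lists are described by counts and medians. All members are named. From each list, up to 3 tested genes with the smallest adjusted p in leg and, for marker lists, the gene of the largest mean could be named, each through its brightest tested probe set. Outside this rule, and after their values were seen, Acta1, Btk, Clec4d, Coro1a, Cr2, Dmd, Dok2, Flt3, Hcls1, Hoxd8, Icam2, Itgb1, Jchain, Myh2, Myl2, S100a9, Spi1, Syk, Tln1, Tnnc2, Tpsab1, Vav1, Vcam1 and Xcr1 are named. Alternatives changed the scaling (deposited values, quantiles), the floor (20, 100 or a pseudocount of 50), the filter (none, or 500), the variance model (no trend, array weights), the arrays fitted (compared groups only, each array left out) and the pairing (replicate block). Fits without leg control arrays 1 and 4, without the filter at a floor of 20, and without the filter leaving out each array, and the gene list counts without those controls, were added after seeing the data.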

Additional observations from a re-analysis of the deposited data

Results flagged for a closer look

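For each member probe set, each group of 5 arrays was checked for a single array far from the other 4 on floored log2 signals, leaving out groups wholly at the floor. Such an array was found in 5 of 38 groups. In 3 of these (Ptprc 101048_at, Ptprc 101297_at and Itgam) the other 4 arrays were all at the floor, so that any signal above it meets the criterion by construction. Of the other 35 groups 2 had such an array, Fcgr2b and Fcer1g in leg control. There 2 and 3 of the 5 arrays were at the floor, which narrows the spread of the rest. The rate of about 1 in 20 that chance gives without a floor is therefore no fair measure for them. In leg control, array 4 was the highest for Fcgr2b (137.0, next 60.8) and for Fcer1g (88.0, next 51.8), and array 5 for Ptprc 101048_at (81.5). In extraocular control, array 1 was the highest for Itgam (71.4, next 47.5), and in extraocular mdx, array 5 was the highest for Ptprc 101297_at (50.2, next 15.1). Apart from Fcgr2b, these values lie near the floor of 50. The mdx effect differed between leg and extraocular muscle by the test of the difference for Tyrobp (3.13 on the log2 scale), Fcgr2b (2.48) and Fcgr1 102879_s_at (1.29).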

How the results depend on the processing

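The leg call of the 4 tested members and the difference of the mdx effect for Tyrobp, Fcgr2b and Fcgr1 kept direction and call under every alternative in which the probe set was fitted. With no filter the number of member probe sets called was 8 of 11 in leg (4 in the main fit) and 5 of 11 for the difference of effects (3). A filter at 500 left 2 member probe sets, so that 2 were called in leg and 2 between the muscles in mdx mice (4). Between control muscles the count was 1 in place of 0 with a floor of 20 and without leg control arrays 1 and 4, and 0 to 1 when single arrays were left out. Small control-muscle differences changed sign: Itgb2 was 0.10 with a floor of 100 and ran from -0.54 to 0.09 without single arrays, and Fcgr1 102879_s_at was 0.01 without leg control arrays 1 and 4 and ran from -0.14 to 0.14. The Fcgr1 effect in extraocular muscle ran from -0.04 to 0.24. Among all probe sets fitted, not only the members, the extraocular count was 6 in the main fit and 3 to 11 under the alternatives. It was 11 with a floor of 100, with array weights and without EOM mdx array 3. The count was 3 with no filter and without EOM control array 2, EOM control array 3 or EOM mdx array 5.

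For arrays with the same replicate number, deviations from the group means were weakly correlated. Between control and mdx arrays r was positive throughout, from 0.012 to 0.18 in leg and 0.019 to 0.228 in extraocular muscle. Between leg and extraocular arrays of the same genotype r ran from -0.012 to 0.052 in control and from -0.084 to 0.081 in mdx mice. The sample titles do not say whether leg and extraocular muscle came from the same mice. The main fit does not take the numbers to pair arrays, and a batch shared by number was not tested. With a replicate block 4 members were called in leg, 0 in extraocular muscle, 3 for the difference of effects, 0 between control muscles and 4 between mdx muscles, as without it. No block on a scan date or slide could be fitted, since the labels used here give none. The value table used here gives no detection calls, and members near the floor are limited by signal over background.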
